A study of Homo sapiens with 4 samples.

Results

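The NF-κB genes described here are 10 of the 26485 gene names in the deposited tables, chosen by name as the subunits (RELA, RELB, REL, NFKB1 and NFKB2), the inhibitors (NFKBIA, NFKBIE and TNFAIP3) and the kinases (IKBKB and IKBKE) of the pathway. They were measured in SW1736 and 8505C, established human cell lines from anaplastic thyroid cancer (ATC), and in their paclitaxel-resistant derivatives SW1736-PTX and 8505C-PTX. The resistant cells came from 6 months of exposure to paclitaxel, a taxane that stabilises microtubules, with the dose raised from 1 nM to 1.5 µM. They were still kept in 1.5 µM of the drug, whereas the authors describe the wild-type (wt) cells as sensitive. Each of the 4 conditions was sequenced as 1 mRNA library, so no value has a replicate and a difference within 1 line has no test. Only a change shared by both lines could be set against the spread between the lines. Whether the resistant populations were cloned is not given in the sources used here. The state of being resistant cannot be told apart from the presence of the drug in the medium.

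NF-κB is a family of transcription factors that bind DNA as dimers. In resting cells the dimers are held in the cytoplasm by inhibitors of the IκB family. Cytokine and Toll-like receptors activate the IκB kinase complex, which marks the inhibitor for destruction and lets the dimer enter the nucleus. Several of the genes that NF-κB switches on encode its own inhibitors and subunits, so that the pathway limits itself. mRNA levels do not measure the activity of the factor, which depends largely on where the protein is.

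The libraries held 43.5 to 57.9 M aligned reads of 75 bases, and both resistant libraries were deeper than their parental libraries. Thyroid identity was only partly visible. Of 6 thyroid follicular markers, TSHR and SLC5A5 were listed at 0 in every library. TG did not pass 0.00586 FPKM (aligned fragments scaled to gene length and library depth). Of 6 epithelial markers, keratins KRT7, KRT8 and KRT18 were abundant throughout, whereas EPCAM and CDH1 stayed at or below 0.0806 FPKM. The keratin KRT19 was abundant only for SW1736 wt (266 FPKM), with 0.535 for SW1736-PTX, and both 8505C libraries listed it at 0. The library labelled SW1736-PTX stood apart from its parental library in some, but not all, of the markers that separated the parental lines. PAX8 was at 38.2 FPKM in SW1736 wt and between 0.123 and 0.206 in the other 3 libraries. FOXE1 was at 26.6 FPKM in SW1736 wt and between 0.0443 and 0.511 in the other 3. NKX2-1 was listed at 0 in SW1736 wt but between 30.5 and 39.0 elsewhere. Across 14692 genes, which are not independent replicates, Pearson's r of log2(FPKM + 0.1) for the library labelled SW1736-PTX was 0.767 with SW1736 wt and 0.873 with 8505C wt. With 8505C-PTX it was 0.933, the highest of all pairs of libraries. Between 8505C wt and 8505C-PTX r was 0.877. For the 10 genes and for the counts of calls in the lists of pathway and target genes, SW1736-PTX is therefore given against SW1736 wt and against 8505C wt, and the part that line identity has in these differences was not tested. Of 6 leukocyte genes, CD14 and CD68 passed 0.5 FPKM in every library and the other 4, PTPRC among them, stayed at or below 0.0197, with a summed level from 6.75 to 47.5 FPKM. Of 4 endothelial genes, CDH5 alone passed 0.5 FPKM, at 55.9 in 8505C wt and 4.53 in 8505C-PTX, but not in the SW1736 libraries. Whether cells of other types had a part in the differences was not tested.

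Of the 10 NF-κB genes, 1 changed beyond the limits in SW1736-PTX against SW1736 wt, and none did in 8505C-PTX against 8505C wt. The limits of 0.5 FPKM and of 1.5 on the log2 scale in either direction are those of the study. Asking for the FPKM limit in at least 1 library of a pair, and taking the fold change on FPKM + 0.1, were choices made here. All 10 genes passed the FPKM limit in each library. The gene that changed was TNFAIP3, which rose. In such bulk RNA, more cells with a transcript and more transcript per cell cannot be told apart. By the same limits 25.9% of all 14202 genes compared in the SW1736 pair were called (15.7% higher and 10.2% lower), and 20.9% of the 13794 compared in the 8505C pair (15.0% higher and 5.89% lower). With a limit of 1 in place of 1.5, 1 of the 10 passed in the SW1736 pair against 40.4% of all genes, and 2 passed in the 8505C pair against 35.5%. The median log2 fold change of the 10 genes was 0.18 in the SW1736 pair and 0.19 in the 8505C pair, beside 0.01 and 0.11 for all genes compared.

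A fit across both lines, with the line as a block and the pairs taken as labelled, asked which changes the resistant libraries shared. It was added after the values had been seen and leaves 1 residual degree of freedom per gene. By limma on log2(FPKM + 0.1), 0 of the 10 genes and 0 of all 14692 genes (0.0%) passed an adjusted p of 0.05. An unadjusted p under 0.05 by limma was reached by 1 of the 10 genes and by 3131 of the 14692, a larger share. The 1 gene was NFKBIA, with a mean log2 fold change of 1.04 ± 0.35 (SE), higher in both resistant libraries. Its adjusted p was 0.200 by limma. The adjusted p of the other 9 lay between 0.444 (NFKB2) and 0.995 (NFKBIE). TNFAIP3, which went opposite ways in the pairs, had 0.92 ± 0.71.

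**Figure D1:**
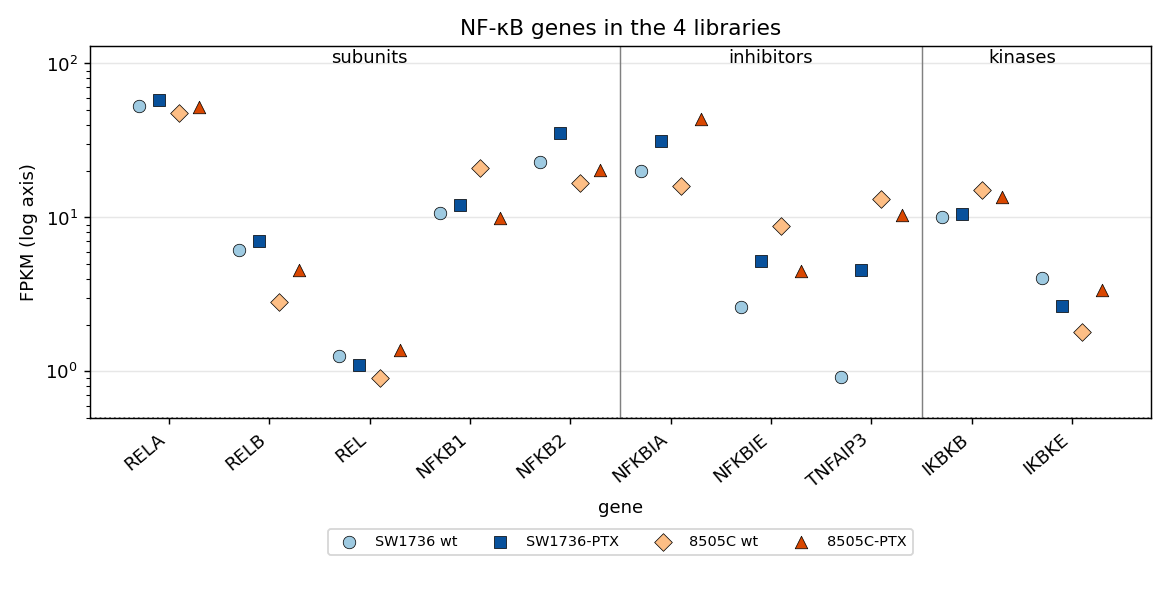
FPKM (log axis) of the 10 NF-κB genes in the 4 libraries, 1 point per library, grouped by role. RELA lies between 47.8 and 58.3 FPKM in every library, and TNFAIP3 has the widest range, from 0.925 to 13.1 FPKM.

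The subunits differed less between libraries than the inhibitors. RELA (chromosome 11, 65653596 to 65662972, minus strand) encodes the main activating subunit of the canonical pathway. Gene positions are given on hg38 as deposited. RELA was at 53.2 FPKM in SW1736 wt against 58.3 in SW1736-PTX, and 47.8 in 8505C wt against 52.0 in 8505C-PTX. It was the most abundant of the 10 genes in each library, above 86.5% to 91.0% of the genes over 0.5 FPKM. Its highest and lowest libraries were 1.22-fold apart, the narrowest range of the 10 genes. The log2 fold changes were 0.13 in the SW1736 pair and 0.12 in the 8505C pair, and that of SW1736-PTX against 8505C wt was 0.29.

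NFKB1 (chromosome 4, 102501329 to 102617302, plus strand) encodes a precursor that is cut to the DNA-binding partner of RELA. It was at 10.7 FPKM in SW1736 wt against 12.0 in SW1736-PTX, and 21.1 in 8505C wt against 9.85 in 8505C-PTX. The library of 8505C wt was thus the high one, and the other 3 lay within 9.85 to 12.0 FPKM. The log2 fold change was -1.09 in the 8505C pair, a 2.14-fold lower level in 8505C-PTX, and 0.16 in the SW1736 pair. From approximate read numbers (2132 to 3717 per library), the counting error alone put the 8505C value between -1.17 and -1.02. Such 95% intervals are exact binomial ones on the ratio of reads, without the added 0.1 FPKM, and cover counting error only. Against 8505C wt, SW1736-PTX had -0.81, so the sign for this line depended on its reference.

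NFKB2 (chromosome 10, 102394110 to 102402529, plus strand) encodes the precursor processed in the non-canonical pathway, whose product pairs with RELB. Its FPKM was 22.9 in SW1736 wt against 35.1 in SW1736-PTX, and 16.8 in 8505C wt against 20.2 in 8505C-PTX. SW1736-PTX was the highest of the 4 libraries, with a log2 fold change of 0.61 over SW1736 wt (counting interval 0.54 to 0.68) and of 1.06 over 8505C wt. In the 8505C pair the value was 0.26. RELB (chromosome 19, 45001449 to 45038198, plus strand) was at 6.11, 7.06, 2.83 and 4.54 FPKM in SW1736 wt, SW1736-PTX, 8505C wt and 8505C-PTX. Like NFKB2, it was lowest in 8505C wt and highest in SW1736-PTX. Its log2 fold change was 0.21 in the SW1736 pair and 0.66 in the 8505C pair, and 1.29 for SW1736-PTX against 8505C wt.

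REL (chromosome 2, 60881495 to 60928156, plus strand), the subunit best known from lymphoid cells, was the least abundant subunit in each library. It was at 1.26 FPKM in SW1736 wt against 1.10 in SW1736-PTX, and 0.910 in 8505C wt against 1.37 in 8505C-PTX. Its log2 fold changes of -0.18 and 0.55 had opposite signs in the SW1736 and 8505C pairs, and SW1736-PTX had 0.25 against 8505C wt. FPKM corrects for gene length, so the subunits can be compared with each other within a library. The 5 subunits together held 94.3 FPKM in SW1736 wt against 114 in SW1736-PTX, and 89.3 in 8505C wt against 88.0 in 8505C-PTX. RELA made up 56.5%, 51.4%, 53.5% and 59.1% of that sum in the same order. NFKB1 made up 23.6% of it in 8505C wt and 10.6% to 11.4% in the other 3 libraries. NFKB2 mRNA was 2.13, 2.92 and 2.05 times as abundant as NFKB1 mRNA in SW1736 wt, SW1736-PTX and 8505C-PTX, but 0.797 times in 8505C wt. The 8505C wt library was therefore the only 1 of the 4 with more NFKB1 than NFKB2, and the ratio moved to the side of the SW1736 libraries in 8505C-PTX.

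**Figure D2:**
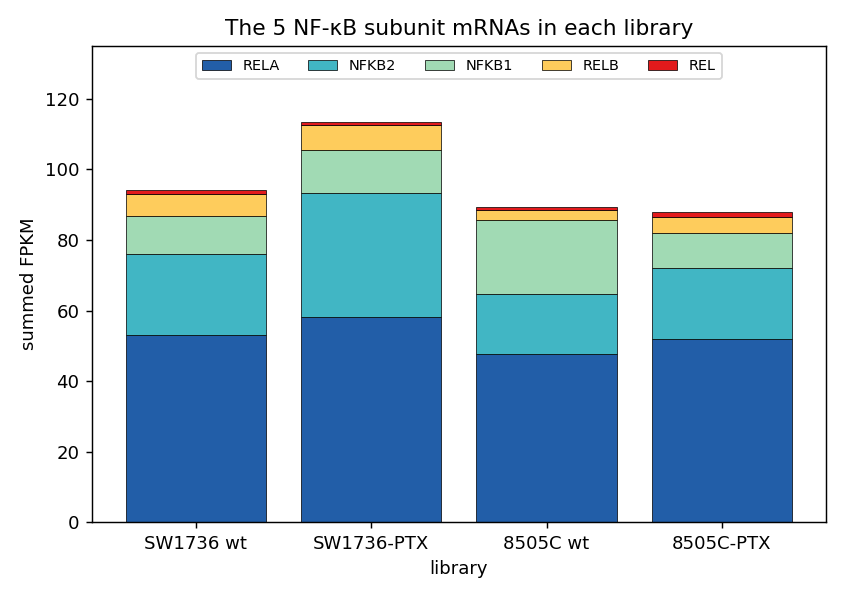
Summed FPKM (linear axis from 0) of the 5 NF-κB subunit genes in each library, 1 stacked bar per library without error bars because there is 1 library per condition. RELA is the largest part of every bar, and the NFKB1 part is widest in 8505C wt (21.1 FPKM) while the NFKB2 part is widest in SW1736-PTX (35.1 FPKM).

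Among the inhibitors, each gene had its own pattern over the 4 libraries. NFKBIA (chromosome 14, 35401510 to 35404754, minus strand) encodes the IκB protein that is degraded and resynthesised during canonical signalling. Its FPKM was 20.1 in SW1736 wt against 31.4 in SW1736-PTX, and 16.1 in 8505C wt against 43.8 in 8505C-PTX. Both resistant libraries lay above both parental ones, which held for NFKBIA and for none of the other 9 genes. In 8505C-PTX the level was 2.73-fold that of 8505C wt, a log2 fold change of 1.44 just under the limit of 1.5, with a counting interval of 1.35 to 1.55 that includes the limit. In SW1736-PTX it was 1.56-fold that of SW1736 wt, a log2 fold change of 0.64, and 0.96 on the log2 scale over 8505C wt. Relative to RELA within a library, NFKBIA mRNA was at 0.377 in SW1736 wt against 0.538 in SW1736-PTX, and 0.336 in 8505C wt against 0.842 in 8505C-PTX.

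NFKBIE (chromosome 6, 44258166 to 44265788, minus strand) encodes another inhibitor of the IκB family. It was at 2.61 FPKM in SW1736 wt against 5.21 in SW1736-PTX, and 8.86 in 8505C wt against 4.52 in 8505C-PTX. The parental lines formed the extremes and the resistant libraries lay between them, close to each other. Its log2 fold change was 0.97 in the SW1736 pair (counting interval 0.80 to 1.20) and -0.95 in the 8505C pair (-1.12 to -0.82), so the changes had nearly the same size and opposite signs. Against 8505C wt, SW1736-PTX had -0.75.

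TNFAIP3 (chromosome 6, 137867188 to 137883314, plus strand) encodes a ubiquitin-editing enzyme that shuts down signalling from TNF and Toll-like receptors. It was at 0.925 FPKM in SW1736 wt against 4.54 in SW1736-PTX, and 13.1 in 8505C wt against 10.3 in 8505C-PTX. SW1736 wt was low and both 8505C libraries were high, with SW1736-PTX between them. TNFAIP3 rose 4.91-fold in SW1736-PTX against SW1736 wt, a log2 fold change of 2.18, from about 210 reads to about 1220, with a counting interval of 2.08 to 2.51. With 1 FPKM added in place of 0.1 the value was 1.52, just past the limit. Against 8505C wt, the same library was below the reference, with a log2 fold change of -1.51 that passed the limit in the other direction, so the rise rests on SW1736 wt as the reference. By the same limits 20.4% of 13824 genes were called between SW1736-PTX and 8505C wt (15.1% higher and 5.23% lower). In the 8505C pair the value was -0.34. The antisense gene LOC100130476, which overlaps the start of TNFAIP3, stayed at or below 0.171 FPKM.

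The promoters of these feedback genes are the place where NF-κB is known to act on its own pathway. RefSeq promoters (GRCh38.p14, 250 bases before to 50 after the gene start) were found for 7 of the 10 genes, the exceptions being RELB, NFKBIE and IKBKB. The NF-κB consensus of 10 bases was searched on both strands. It occurred in 4 of the 7 promoters (57.1%), and in 10.8% of all 27305 promoters of the same length. It occurred at more than 1 position in 2 of the 7, and in 1.88% of all promoters. The promoters to show were those with the most matches, up to 4. The 30 bases around the matches are shown for the 4 genes, 5′ to 3′ on the strand of the gene, with the matching bases in capitals.
TNFAIP3, chr6:137867188-137867217, plus strand: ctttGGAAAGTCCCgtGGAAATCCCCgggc
NFKBIA, chr14:35404811-35404840, minus strand: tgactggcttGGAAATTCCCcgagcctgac
NFKB1, chr4:102501300-102501329, plus strand: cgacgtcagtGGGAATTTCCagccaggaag
REL, chr2:60881518-60881547, plus strand: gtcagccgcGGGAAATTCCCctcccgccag
Distances are counted from the gene start that the RefSeq promoter table uses, which differs from the deposited start given with each gene. From that start of TNFAIP3, at 137867259, the matches began 67 and 55 bases upstream, and they lie inside the gene as deposited. From that of NFKBIA at 35404749 the match began 81 bases upstream, and from that of NFKB1 at 102501359 it began 49 bases upstream. In REL, whose start in that table is at 60881574, a match on each strand overlapped the other. They began 47 and 46 bases upstream, also inside the gene as deposited. A match describes these letters and is not evidence of binding in these cells. The 4 genes with a match did not share a direction, since NFKB1 had -1.09 and NFKBIA 1.44 in the same 8505C pair.

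Of the kinases, IKBKB (chromosome 8, 42271302 to 42332653, plus strand) encodes the catalytic subunit that phosphorylates IκB proteins in the canonical pathway. It was at 10.1 FPKM in SW1736 wt against 10.5 in SW1736-PTX, and 15.0 in 8505C wt against 13.6 in 8505C-PTX. The lines differed more than the conditions, with log2 fold changes of 0.05 in the SW1736 pair and -0.14 in the 8505C pair and 0.56 between the parental libraries. The counting interval of the SW1736 value, -0.02 to 0.15, included 0, and its sign turned when TPM (FPKM scaled to the same total in each library) was used. Against 8505C wt it was -0.51. IKBKE (chromosome 1, 206470243 to 206496890, plus strand) encodes an IKK-related kinase that acts in interferon induction as well. Its FPKM was 4.03 in SW1736 wt against 2.68 in SW1736-PTX, and 1.80 in 8505C wt against 3.36 in 8505C-PTX. The parental libraries were again the extremes, with opposite signs in the pairs, -0.57 for SW1736 and 0.87 for 8505C, and SW1736-PTX had 0.55 against 8505C wt. IKBKB was 8.34 times as abundant as IKBKE in 8505C wt and 2.51 to 4.05 times in the other libraries.

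**Figure D3:**
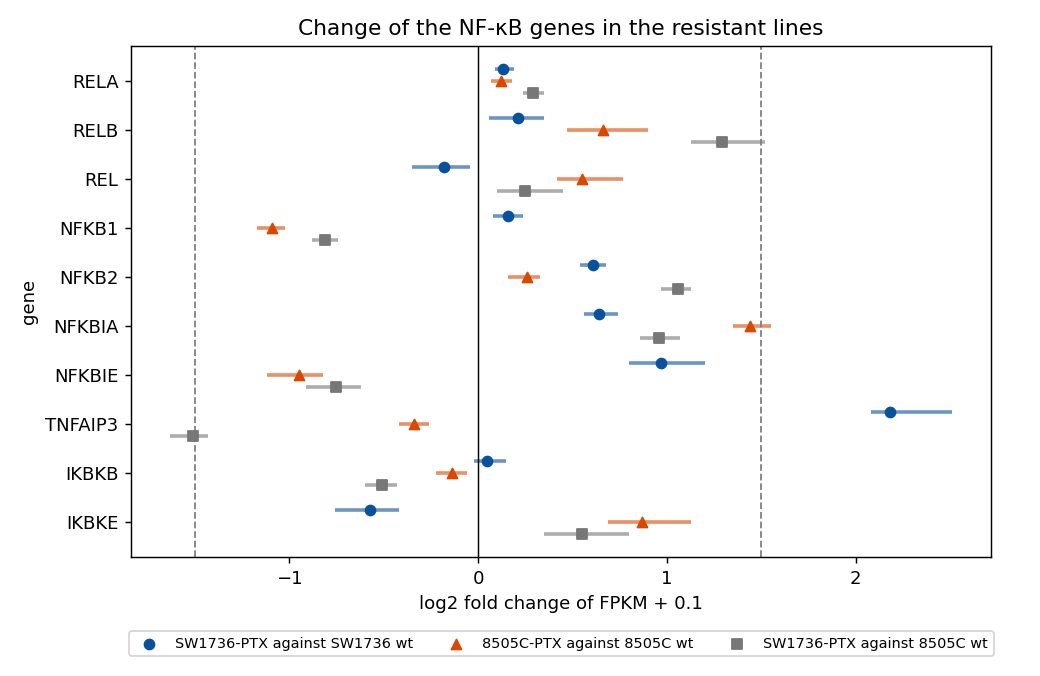
Log2 fold change of FPKM + 0.1 (horizontal axis) for each NF-κB gene in SW1736-PTX against SW1736 wt, 8505C-PTX against 8505C wt and SW1736-PTX against 8505C wt. Points are the values, bars the 95% counting intervals of the read ratio, and dashed lines the limits of 1.5 in either direction. TNFAIP3 is at 2.18 with SW1736 wt as reference and at -1.51 with 8505C wt. RELA, RELB, NFKB2 and NFKBIA are above 0 in all 3 comparisons, of which the last 2 share 8505C wt as reference.

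Between the parental lines, 2 of the 10 genes were called, both higher in 8505C wt than in SW1736 wt, where 17.6% of 13457 genes were called. These were TNFAIP3, with a log2 difference of 3.69, and NFKBIE, with 1.73. RELB (-1.08) and IKBKE (-1.12) were on the other side, lower in 8505C wt. Between the resistant libraries none of the 10 was called, where 7.79% of 13986 genes were called, and the largest log2 difference was 1.17 for TNFAIP3, higher in 8505C-PTX. For NFKBIE it was -0.20 between the resistant libraries. In 6 of the 10 genes the log2 fold changes of the SW1736 and 8505C pairs had opposite signs, and in the other 4 (RELA, RELB, NFKB2 and NFKBIA) both were above 0.

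Genes whose levels over the 4 libraries were most like those of the NF-κB genes that passed 1 were found by the smallest Euclidean distance of log2(FPKM + 0.1), centred over the 4 libraries, among 14692 genes. For NFKB1 it was RANBP9 (distance 0.0561), with 17.0 FPKM in SW1736 wt against 18.4 in SW1736-PTX, and 32.1 in 8505C wt against 15.8 in 8505C-PTX. For NFKBIA it was ERMAP (0.0787), at 0.743, 1.21, 0.595 and 1.86 FPKM in the same order. TNFAIP3 was nearest to FLG, but at the larger distance of 0.313. With 4 libraries such likeness is a description only.

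Beyond the 10 genes, 62 further components of the pathway were listed by role, and 51 of them could be compared in the SW1736 pair and 49 in the 8505C pair. In SW1736-PTX 8 were called higher and 7 lower (29.4% called, beside 25.9% of all genes), with a median log2 fold change of -0.13. In 8505C-PTX 5 were higher and 3 lower (16.3%, beside 20.9%), with a median of 0.15. Against 8505C wt, 6 of 51 were higher and 1 lower in SW1736-PTX (13.7%, beside 20.4%). Members of the list called in both pairs were the receptors TNFRSF1B, CD40 and TLR3 and the adaptor kinase IRAK1.

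The other genes of the IκB family went separate ways in the resistant lines. NFKBIB, an inhibitor of the same kind as NFKBIA, was at 31.1 FPKM in SW1736 wt against 11.9 in SW1736-PTX, and 18.6 in 8505C wt against 9.61 in 8505C-PTX. It was thus lower in both resistant libraries than in both parental ones, the reverse of NFKBIA, with log2 fold changes of -1.38 and -0.94 that did not pass the limit. Summed over NFKBIA, NFKBIB and NFKBIE, the IκB inhibitor mRNA was 53.7 FPKM in SW1736 wt against 48.5 in SW1736-PTX, and 43.5 in 8505C wt against 58.0 in 8505C-PTX. This sum was 0.570, 0.427, 0.487 and 0.659 times that of the 5 subunits in the same order. It was lower in SW1736-PTX and higher in 8505C-PTX than in the parental library. The lower sum in SW1736-PTX rests on NFKBIB. Without NFKBIB the sum was 22.7 FPKM in SW1736 wt against 36.6 in SW1736-PTX, and 24.9 against 48.3 in the 8505C pair. For NFKBIB the deposited coverage and FPKM did not match. At 31.1 FPKM in SW1736 wt it had about 409 reads on a transcript of 1192 bases. NFKBIA, at 20.1 FPKM there, had about 1530 on 1559 bases. The nuclear IκB proteins bind dimers on DNA and modulate transcription. Among their genes, BCL3 rose in 8505C-PTX from 6.19 to 28.3 FPKM (log2 fold change 2.18) and stood at 20.0 and 25.5 FPKM in the SW1736 pair. NFKBIZ rose in 8505C-PTX from 1.54 to 7.83 FPKM (2.28), while its value in the SW1736 pair was -1.42. NFKBID fell in SW1736-PTX from 3.84 to 1.02 FPKM (-1.82), but it was at 0.608 FPKM in 8505C wt.

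The IκB kinase complex holds IKBKB together with the kinase CHUK and the scaffold IKBKG. CHUK was at 14.9 FPKM in SW1736 wt against 6.48 in SW1736-PTX, and 10.9 in 8505C wt against 5.47 in 8505C-PTX, log2 fold changes of -1.19 and -0.98. Relative to IKBKB, CHUK mRNA was at 1.47 in SW1736 wt against 0.619 in SW1736-PTX, and 0.725 in 8505C wt against 0.403 in 8505C-PTX, so the balance of the catalytic subunits lay further on the side of IKBKB in each resistant library than in its parental library. IKBKG fell in SW1736-PTX from 25.2 to 7.05 FPKM (-1.82) and was at 8.33 and 4.91 FPKM in the 8505C pair (-0.75). Against 8505C wt the SW1736-PTX value of IKBKG was -0.24.

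Ligands of the pathway were scarce. Of 9 listed, 2 could be compared in each pair. TNF stayed at or below 0.277 FPKM, and TNFSF11 and CD40LG were listed at 0 in every library. IL1B, a pro-inflammatory cytokine, rose from 0.662 to 2.66 FPKM in SW1736-PTX and was at 3.12 and 2.91 in the 8505C pair. IL1A rose from 0.0358 to 0.589 FPKM in SW1736-PTX, from about 4 reads to about 69. TNFSF12 was at 1.32 FPKM in 8505C wt and listed at 0 in 8505C-PTX. In SW1736 wt it was at 0.0335 FPKM, from about 2 reads, and it was listed at 0 in SW1736-PTX, so it was not compared in that pair.

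Of the 14 listed receptors, 11 could be compared in each pair, and 7 of them were called in the SW1736 pair (4 higher, 3 lower) and 4 in the 8505C pair (3 higher, 1 lower), which is 63.6% and 36.4% beside 25.9% and 20.9% of all genes. Against 8505C wt, 3 of 11 were higher and 0 lower in SW1736-PTX (27.3%, beside 20.4%). Between the resistant libraries 0 of 11 were called, where 7.79% of all genes were. TNFRSF1B, the inducible TNF receptor, rose from 0.0148 to 3.07 FPKM in SW1736-PTX (4.79) and from 0.522 to 5.71 in 8505C-PTX (3.22). Its SW1736 wt level came from about 3 reads, so the size of the first value depends on the added 0.1 FPKM. TLR3, which senses double-stranded RNA, rose from 0.164 to 1.83 FPKM (2.87) and from 0.223 to 1.12 (1.91). The widely expressed TNF receptor TNFRSF1A was at 69.9 and 79.6 FPKM for the SW1736 pair and 57.1 and 123 for the 8505C pair. CD40, a receptor that can start the non-canonical pathway, fell from 38.0 to 3.25 FPKM in SW1736-PTX and was listed at 0 in 8505C wt and at 6.10 FPKM in 8505C-PTX. TLR4, the lipopolysaccharide receptor, rose from 0.177 to 22.7 FPKM in SW1736-PTX (6.36), and was at 10.9 in 8505C wt and 15.7 in 8505C-PTX. TNFRSF11A rose there as well (3.93), and the interleukin-1 receptor IL1R1 fell from 4.62 to 0.528 FPKM (-2.91), and these values were 0.76 and -0.05 against 8505C wt. The remaining calls, named after their values were seen, were IL1RAP (-1.53 in the SW1736 pair) and TNFRSF12A (-1.85 in the 8505C pair).

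Among 15 adaptors, IRAK1, a kinase downstream of interleukin-1 and Toll-like receptors, fell in both pairs, from 181 to 48.4 FPKM in SW1736-PTX (-1.90) and from 113 to 36.8 in 8505C-PTX (-1.62). TRADD, the adaptor of the TNF receptor, was at 11.5 FPKM in SW1736 wt and listed at 0 in the other 3 libraries. BIRC3, a ubiquitin ligase and NF-κB target, rose from 1.14 to 3.54 FPKM in SW1736-PTX (1.56), with 1.01 and 1.17 in the 8505C pair. SHARPIN, of the linear ubiquitin ligase, rose from 12.2 to 39.8 FPKM (1.70) and was at 22.4 and 53.7 in the 8505C pair (1.26). None of the negative regulators other than TNFAIP3 was called among the 8 compared in each pair, where 25.9% and 20.9% of all genes were, with medians of -0.19 and -0.01. MAP3K14, the kinase that starts the non-canonical pathway, was at 9.19 and 24.8 FPKM for the SW1736 pair (1.42) and 15.5 and 15.6 for the 8505C pair. TNIP1, which works with TNFAIP3, was at 40.9 and 109 FPKM for the SW1736 pair (1.41) and 72.2 and 70.0 in the 8505C pair. These last 2 genes were singled out after their values were seen.

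**Figure D4:**
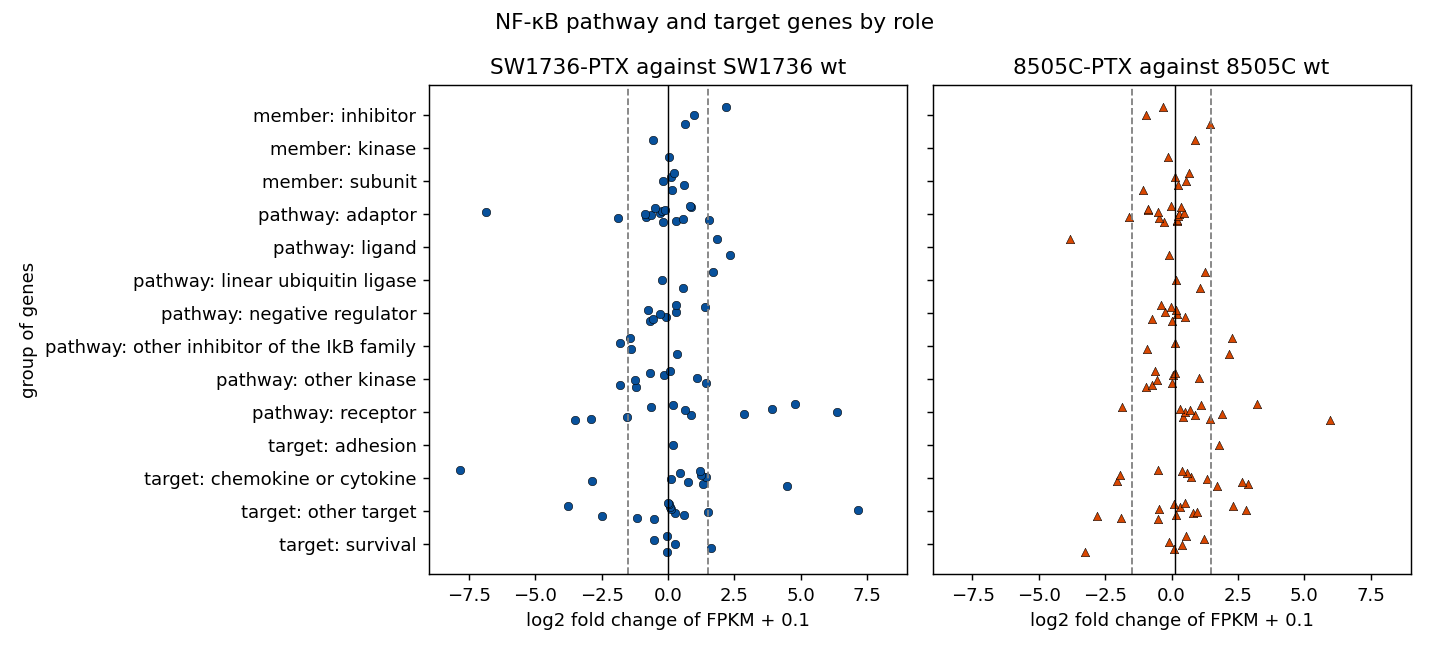
Log2 fold change of FPKM + 0.1 (horizontal axis) of every listed gene that could be compared, by role, in the SW1736 pair (left) and the 8505C pair (right). The solid line is the median of all genes compared (0.01 and 0.11) and dashed lines the limits of 1.5 in either direction. The 5 subunits lie within the limits in both pairs, whereas receptors and chemokines spread on both sides.

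Known targets of NF-κB were called in both directions. Of 38 targets outside the 10 genes, 28 could be compared in the SW1736 pair, with 4 higher and 4 lower (28.6% called, beside 25.9% of all genes), and 29 in the 8505C pair, with 6 higher and 5 lower (37.9%, beside 20.9%). The medians were 0.16 and 0.40, beside 0.01 and 0.11 for all genes. Against 8505C wt, 6 of 29 were higher and 5 lower in SW1736-PTX (37.9%, beside 20.4%). The targets called higher in both pairs were CCL2 and PTGS2. CCL2, a monocyte chemokine, rose from 0.360 to 10.2 FPKM in SW1736-PTX (4.49) and from 4.53 to 15.2 in 8505C-PTX (1.72). PTGS2, the inducible cyclooxygenase, was listed at 0 for SW1736 wt, with 14.2 FPKM in SW1736-PTX, and rose from 1.83 to 13.3 in 8505C-PTX (2.79). F3, tissue factor, fell in both pairs, from 105 to 18.4 FPKM (-2.50) and from 141 to 20.1 (-2.80). TNFAIP2 was called in opposite directions, from 15.7 to 1.06 FPKM in SW1736-PTX (-3.77) and from 0.0856 to 0.829 in 8505C-PTX (2.32). Against 8505C wt, SW1736-PTX had 2.65 for TNFAIP2.

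Other targets changed in 1 pair. In the SW1736 pair LIF, a cytokine of the interleukin-6 family, fell from 47.1 to 0.106 FPKM (-7.84), and it was at 0.741 FPKM in 8505C wt. CSF2 was at 0.620 FPKM in SW1736 wt and listed at 0 in the other 3 libraries. CFLAR, an inhibitor of death receptor signalling, rose from 5.72 to 17.7 FPKM (1.61), and the protease gene PLAU rose from 59.8 to 170 (1.50). Both lay near the limit. The counting interval of CFLAR, from summed coverage, was 1.34 to 1.60 and left out its value by FPKM. Coverage and FPKM of CFLAR also differed in the 8505C pair, with an interval of -0.41 to -0.21 beside 0.40 by FPKM. Against 8505C wt, at 14.0 FPKM of CFLAR and 201 of PLAU, SW1736-PTX had 0.33 and -0.24. Of the 4 targets called higher in the SW1736 pair, centring on the median of all genes and scaled coverage each left 3. In the 8505C pair the adhesion molecule ICAM1 rose from 10.8 to 37.5 FPKM (1.78), and it was at 13.9 and 15.9 in the SW1736 pair. CCL5 was at 0.641 FPKM in 8505C-PTX and listed at 0 in 8505C wt. BCL2A1, a survival gene of the BCL2 family, fell from 1.38 to 0.0528 FPKM (-3.27), and CD83 fell from 2.47 to 0.578 (-1.92). Named after their values were seen, CXCL8 fell from 34.7 to 8.86 FPKM (-1.96), CXCL1 from 32.7 to 7.82 (-2.05), and CSF1 rose from 5.41 to 34.6 (2.65). The neutrophil chemokines did not share a pattern. CXCL8 and CXCL1 had their highest level in 8505C wt, whereas CXCL2, from 1.27 to 3.40 FPKM in the 8505C pair (1.35), and CXCL3, from 0.559 to 1.01 (0.75), were highest in 8505C-PTX. Not called in either pair were SOD2 (56.6, 58.9, 67.2 and 82.7 FPKM in SW1736 wt, SW1736-PTX, 8505C wt and 8505C-PTX) and BCL2L1 (85.1, 84.2, 64.8 and 68.5 FPKM).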

How the data were processed

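mRNA of SW1736 wt, SW1736-PTX, 8505C wt and 8505C-PTX was measured, with 1 library per group from the sample titles. The authors demultiplexed with bcl2fastq 2.20, masked adapters with Cutadapt, trimmed with ERNE, aligned single-end reads of 75 bases to hg38 with STAR and quantified genes with StringTie. Versions of the last 3 and the annotation are not given in the sources used here. The deposited coverage (a signal per base) is not scaled to depth. The deposited FPKM is scaled to gene length and aligned fragments, and the deposited TPM to the same total per library. Read numbers are not part of the tables, so count tests were not applied, and strand handling in quantification is not stated.

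FPKM rows of a gene name were summed, and log2 fold changes were taken on FPKM + 0.1. The authors' limits (FPKM above 0.5, log2 fold change beyond 1.5) were applied, the former to at least 1 library of a pair. Depth came from the ratio of coverage to FPKM. Reads per gene were approximated as coverage times MANE transcript length (GENCODE release 44) over read length. Their number limits counting precision only. Of 22014 names with 1 row that GENCODE also holds, 99.8% overlapped its gene on the same strand. Changes shared by both lines were fitted with limma 3.58.1 (R 4.3.3) on log2(FPKM + 0.1), with the line as a block, a variance trend and Benjamini-Hochberg adjustment.

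The members and lists were chosen with earlier results of these data known. One listed item is not reported here. Named genes were all members, the IκB and IKK genes, and per role those called in both pairs and up to 3 called in 1. Alternatives changed the pseudocount, filter, unit, centring, rows, threshold and reference library. Python 3.11.15, NumPy 2.4.6, pandas 2.3.3, SciPy 1.17.1 and matplotlib 3.10.9 were used.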

Additional observations from a re-analysis of the deposited data

Results flagged for a closer look

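For 6 of the 10 NF-κB genes the change in the SW1736 pair and that in the 8505C pair had opposite signs. The differences (SW1736 pair minus 8505C pair, on the log2 scale) were 2.52 for TNFAIP3, 1.93 for NFKBIE, -1.44 for IKBKE, 1.25 for NFKB1, -0.72 for REL and 0.19 for IKBKB. Among the other listed genes, TNFAIP2 (-6.09) was called in opposite directions in the pairs. CD40 was lower in SW1736-PTX than in SW1736 wt, and was at 6.10 FPKM in 8505C-PTX while listed at 0 in 8505C wt, so no difference is given for it. These differences were not tested, because each condition has 1 library. With 8505C wt as the reference of SW1736-PTX, the signs of all 6 genes in SW1736-PTX turned. That of TNFAIP2 turned as well, to 2.65. CD40, at 3.25 FPKM in SW1736-PTX, was then higher than in the reference, so both genes went the way of the 8505C pair.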

How the results depend on the processing

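Of 146 counts of calls by fold recomputed under the alternatives, 121 stayed within 1.5 times the reported count. With 8505C wt as the reference of SW1736-PTX, the NF-κB genes called were 0 higher and 1 lower, TNFAIP3 reversed to -1.51, and 1 pathway gene was lower. With a limit of 1, the 8505C pair had 1 NF-κB gene higher and 1 lower, the parental lines differed in 4 and the resistant libraries in 1, pathway genes were 11 lower in the SW1736 pair and 10 higher in the 8505C pair, and 8 targets were higher in the SW1736 pair. With a limit of 2, the parental lines differed in 1, pathway genes were 5 higher and 3 lower in the SW1736 pair and 1 lower in the 8505C pair, and targets were 2 higher in the SW1736 pair and 3 lower in the 8505C pair. With a pseudocount of 1 FPKM, TNFAIP3 in the SW1736 pair went from 2.18 to 1.52, the parental lines differed in 1 NF-κB gene, 4 pathway genes and 2 targets were higher in the SW1736 pair, and 3 targets were lower in the 8505C pair. With FPKM above 0.5 required in both libraries, 3 pathway genes were higher in each pair, and targets were 2 higher and 2 lower in the SW1736 pair. With no filter, 7 targets were higher in the SW1736 pair. Scaled coverage, chosen after seeing the data, shifted no log2 fold change of the 10 genes by more than 0.02. The limma fit with the line as a block, also chosen after seeing the data, called 0 genes without a variance trend and 0 with FPKM above 0.5 required in every library, but 1 of all genes with a pseudocount of 1 FPKM, and 0 of the 10 NF-κB genes in each of these. The adjusted p of NFKBIA lay between 0.149 and 0.323 over these alternatives by limma.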
